A study of Mus musculus with 36 samples.

Results

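The comparison asks whether the kidneys of obese and lean mice answer a low dose of cadmium differently. It is the interaction (ob at 0.5 mg/kg minus ob control) minus (b6j at 0.5 mg/kg minus b6j control), taken on the log2 scale for each gene. It used 24 of the 36 kidney mRNA libraries of the series, 6 in each of 4 groups. These were ob at 0.5 mg/kg CdCl2, untreated ob, b6j at 0.5 mg/kg CdCl2 and untreated b6j. The ob mice are ob/ob animals, which carry a mutation of the leptin gene and become obese and insulin resistant. The b6j mice are normal C57BL/6 animals, and the labels give C57BL/6 as the strain of both genotypes. The labels do not state the route, the number of doses, the time of killing, the age or the sex, so the 4 groups are known by genotype and dose alone. The ob mutation acts in the whole animal from birth, and its effect on the kidney cannot be told apart from that of obesity. All genes counted were considered, and 17282 of 55536 had enough reads to be tested. Nothing in the labels says more of the replicates than that they are separate samples, so the p-values measure the spread between these samples. A positive interaction means that the log2 change with cadmium was higher in ob than in b6j, and values are given as log2 ± standard error with adjusted p-values of the quasi-likelihood test of edgeR.

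Cadmium that reaches the kidney is taken up by proximal tubule cells, where it is bound by metallothioneins, small cysteine-rich proteins induced through the metal-sensing factor MTF1. Cadmium also binds thiols, and this releases the factor NRF2 from KEAP1. NRF2 acts at antioxidant response elements of genes for glutathione synthesis, drug conjugation and NADPH supply. Leptin is a hormone of fat cells that limits food intake. Heme oxygenase 1, the product of Hmox1, is induced by both heme and oxidants. The kidney injury marker KIM-1, the product of Havcr1, appears on damaged proximal tubule cells.

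The 24 libraries held 28693083 to 37244058 counted reads, so that 3 reads were worth 0.0805 to 0.105 CPM (counts per 1000000 counted reads) before the library sizes were scaled. Levels below are CPM after that scaling. The libraries read as kidney. Median levels of the proximal tubule receptor Lrp2 were 2361 CPM in ob at 0.5 mg/kg, 2357 in ob controls, 3088 in b6j at 0.5 mg/kg and 2895 in b6j controls. Those of the loop of Henle gene Umod were 1587, 2340, 2372 and 2356 CPM in the same order. The leptin transcript itself was near the 3-read level in b6j kidneys. Lep had 0, 1.41 and 13.8 CPM (lowest, median and highest of 6) in ob at 0.5 mg/kg, 0.0579, 2.51 and 7.83 in ob controls, 0, 0.174 and 0.271 in b6j at 0.5 mg/kg and 0, 0.0577 and 0.184 in b6j controls. Its interaction was -1.13 ± 1.75 (adjusted p = 0.822). The ob allele alters the coding sequence, so transcript counts of Lep do not check the genotype. Markers of fat were counted in every group, and their summed level was 154.3 to 376.7 CPM in ob at 0.5 mg/kg, 85.13 to 221.3 in ob controls, 127.9 to 363.8 in b6j at 0.5 mg/kg and 113.4 to 188.4 in b6j controls. Of the 24 libraries, b6j at 0.5 mg/kg replicate 6 stood apart. The median deviation of its 25% of genes with the shortest exonic length exceeded that of the 25% with the longest by 0.314 on the log2 scale relative to the mean of the other 5 of its group, against -0.143 to 0.0902 for the other 23 libraries. The untreated b6j replicate 4 had high injury transcripts, described below with the genes they touch.

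The ob kidneys answered 0.5 mg/kg with many more called genes than the b6j kidneys, and the difference itself was called for 321 genes. In ob, 1849 of 17282 genes tested passed an adjusted p of 0.05 (10.7%), of which 1232 rose (7.13%) and 617 fell (3.57%). In b6j, 160 passed (0.926%), of which 119 rose (0.689%) and 41 fell (0.237%). The interaction was called for 1.86% of those tested, with 254 genes higher (1.47%) and 67 lower (0.388%), and 303 of the 321 code for proteins. It exceeded 2-fold for 73 (0.422%). The median log2 interaction over all genes was -0.0149.

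Most of the called genes had the larger response in ob. Of the 254 higher genes, 211 rose in ob and did not pass the test in b6j. A further 23 rose in both genotypes, and their log2 rise in ob was 1.31 to 3.91 times that in b6j, with a median of 2.32. Nhp2 and Tmprss9 rose in ob and fell in b6j, 3 fell in b6j without passing the test in ob, and 15 passed neither single test. Of the 67 lower genes, 50 fell in ob and did not pass in b6j, 7 rose in b6j and did not pass in ob, and 10 passed neither. The fitted response was larger in absolute size in ob for 285 of the 321 genes and in b6j for 36. The responses of ob and b6j shared 105 called genes, 103 of them in the same direction, which is 5.68% of the ob calls and 65.6% of the b6j calls.

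**Figure D1:**
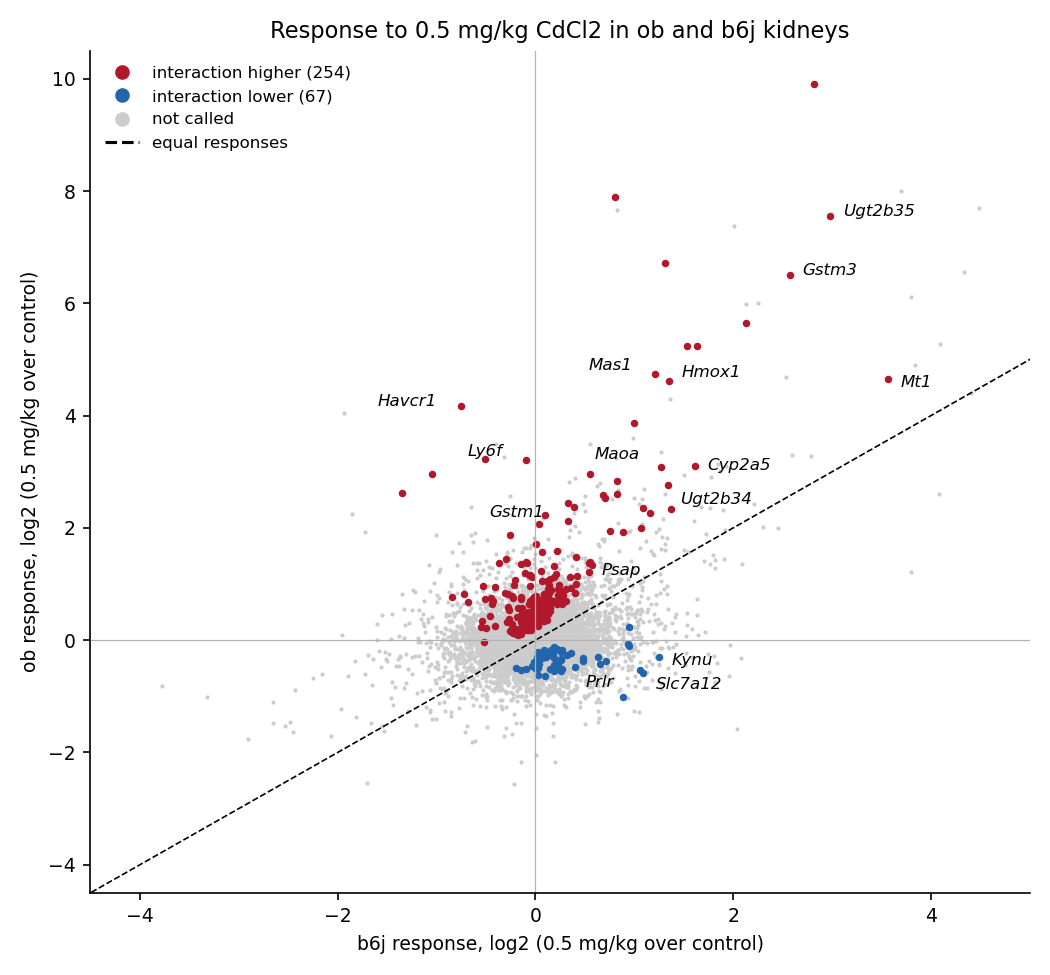
Response to 0.5 mg/kg CdCl2 of 17282 genes, as the log2 ratio over control in b6j (x axis) and in ob (y axis), from 6 kidneys per group. Red points are the 254 genes with a higher response in ob and blue points the 67 with a lower one (adjusted p below 0.05), grey points were not called, and the dashed line marks equal responses. The height of a point above or below the line is its log2 interaction, and 73 of the 321 called genes lie more than 1 log2 unit from it.

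The count of calls depended on the fit, and so did the balance of higher and lower calls. Without b6j at 0.5 mg/kg replicate 6, 846 genes were called, and the 321 were all among them. Without untreated b6j replicate 4 the count was 346. With the 12 libraries at 2 mg/kg in the same fit it was 70, of which 69 were among the 321 and 95.7% were higher. Dropping ob at 2 mg/kg replicate 5 from that fit gave 254 calls, 231 of them among the 321. Scaling by library size alone called 455 genes, of which 37.4% were higher, against 79.1% of the 321, and it moved the median of all genes to -0.103. In none of the fits run did any of the 321 change sign. The 321 were picked for their difference in libraries that these fits share, so their kept sign is no independent support.

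Metallothionein transcripts rose in both genotypes, and the rise of Mt1 was larger in ob. Mt1 lies at chr8:94179082-94180327 (GRCm38, plus strand). The promoter window is printed because it carries the metal response element core that MTF1 reads. Capitals mark matches on either strand to the core letters TGCACNC or TGCGCNC. The 300 bases are chr8:94178839-94179138 on the plus strand, from RefSeq GRCm38.p6, and hold 3 matches.
Mt1: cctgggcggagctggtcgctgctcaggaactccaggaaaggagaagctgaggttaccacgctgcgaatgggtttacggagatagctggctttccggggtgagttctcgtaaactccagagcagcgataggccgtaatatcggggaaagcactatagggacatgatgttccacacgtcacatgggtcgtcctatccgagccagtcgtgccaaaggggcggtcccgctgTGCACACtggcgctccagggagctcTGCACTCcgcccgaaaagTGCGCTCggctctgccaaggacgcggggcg
Mt1 had 1988, 2870 and 3140 CPM in ob at 0.5 mg/kg, against 89.6, 104 and 148 CPM in ob controls. In b6j kidneys it had 1132, 1304 and 1787 CPM at 0.5 mg/kg, against 92.8, 111 and 139 CPM in controls. All 6 treated kidneys exceeded all 6 controls in each genotype, and every treated ob kidney exceeded every treated b6j kidney. The mean level at 0.5 mg/kg over that of controls was 25.2-fold in ob and 11.8-fold in b6j, and the interaction was 1.09 ± 0.18 (adjusted p = 0.000576). The untreated groups had close medians, 104 CPM in ob and 111 CPM in b6j, and their log2 difference was -0.057 (adjusted p = 0.78). Mt2 had 9.10, 16.7 and 19.4 CPM in ob at 0.5 mg/kg, 0.228, 0.483 and 0.965 in ob controls, 5.99, 6.61 and 9.43 in b6j at 0.5 mg/kg and 0.179, 0.396 and 0.831 in b6j controls. Its interaction, 1.05 ± 0.40, was close in size to that of Mt1 and did not pass the test (adjusted p = 0.197). Mt2 overlaps an antisense gene, and the counting ignored strand.

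Of 19 genes of metal handling tested (of 21 listed), 2 were higher in the interaction and 0 lower, against 1.47% of all genes higher, with a median of 0.0292. The 2 were Mt1 and Slc30a2, a vesicular zinc transporter. Slc30a2 had 78.8, 111 and 125 CPM in ob at 0.5 mg/kg, against 43.9, 48.5 and 61.8 CPM in ob controls. The b6j kidneys had 76.9, 106 and 162 CPM at 0.5 mg/kg and 89.6, 99.7 and 127 CPM in controls, and the treated ob range lay within the joint range of the b6j groups. Its interaction was 0.94 ± 0.19 (adjusted p = 0.00647).

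Heme breakdown gave the called difference with the smallest p. Hmox1, the heme oxygenase that opens the heme ring, lies at chr8:75093621-75100589 (plus strand). Hmox1 had 498, 650.3 and 712 CPM in ob at 0.5 mg/kg, against 22.7, 24.8 and 32.4 CPM in ob controls. The b6j kidneys had 101, 115 and 133 CPM at 0.5 mg/kg, against 36.9, 40.9 and 70.9 CPM in controls. The treated ob kidneys stood far above the 3 other groups, which were ordered b6j treated, b6j untreated and ob untreated without overlap. The rise was 24.5-fold in ob and 2.55-fold in b6j, and the interaction was 3.27 ± 0.18 (adjusted p = 1.78e-12). Of 20 genes of heme breakdown and iron handling, 5 were higher in the interaction and 0 lower, with a median of 0.134 against -0.0149 for all genes. The share higher was 25%, against 1.47% of all genes. In ob 9 of the 20 rose, and in b6j 2 did, against 7.13% and 0.689% of all genes.

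Other genes of heme and iron handling had positive interactions of smaller size. Blvrb, a biliverdin reductase, had 42.5, 49.7 and 56.6 CPM in ob at 0.5 mg/kg, 20.3, 24.6 and 28.5 in ob controls, 20.5, 27.1 and 34.6 in b6j at 0.5 mg/kg and 19.6, 23.5 and 25.3 in b6j controls (interaction 0.75 ± 0.14, adjusted p = 0.00253). Fth1, the ferritin heavy chain that stores iron, had 4506, 5415 and 6194 CPM in ob at 0.5 mg/kg, 2567, 3178 and 3410 in ob controls, 3951, 4325 and 6533 in b6j at 0.5 mg/kg and 3948, 4336 and 4413 in b6j controls (interaction 0.69 ± 0.14, adjusted p = 0.0046). Both rose in ob and did not pass the test in b6j. The highest Fth1 value in treated b6j came from replicate 6, the library that stood apart. Slc48a1, a heme transporter of endosomes and lysosomes, had an interaction of 0.36 ± 0.060 (adjusted p = 0.000948). Tfrc, the transferrin receptor, had medians of 90.5 CPM in ob at 0.5 mg/kg, 68.6 in ob controls, 88.3 in b6j at 0.5 mg/kg and 107 in b6j controls. It rose in ob by 0.54 (adjusted p = 0.00346) and its b6j response of -0.27 (adjusted p = 0.422) did not pass, although all 6 treated b6j kidneys were below all 6 controls. Its interaction was 0.81 ± 0.17 (adjusted p = 0.00914).

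Enzymes that conjugate drugs and oxidized lipids showed some of the most positive interactions. Of 23 glutathione S-transferase genes tested, 5 were higher (21.7%, against 1.47% of all genes) and 1 lower, with a median of 0.232. In ob 10 of them rose and 1 fell, against 7.13% and 3.57% of all genes. In b6j 4 rose, against 0.689%. Gstm1, a mu-class enzyme, had 1786, 2176 and 2619 CPM in ob at 0.5 mg/kg, against 435, 477 and 614 CPM in ob controls. Its b6j levels were 686, 817 and 930 CPM at 0.5 mg/kg, against 567, 639 and 709 CPM in controls. The ob controls had the lowest median and overlapped the b6j controls, and the treated ob kidneys were above all others, with an interaction of 1.79 ± 0.13 (adjusted p = 9.61e-10). Its b6j response of 0.33 ± 0.091 did not pass (adjusted p = 0.082).

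Gstm3 and Gsta1 were low in ob controls and in both b6j groups and high in treated ob kidneys. Gstm3, at chr3:107963696-107969283 (minus strand), had 15.97, 23.9 and 32.9 CPM in ob at 0.5 mg/kg, against 0.159, 0.225 and 0.541 CPM in ob controls. The b6j values were 0.852, 1.06 and 2.12 CPM at 0.5 mg/kg and 0.0839, 0.208 and 0.298 CPM in controls, with both control groups close to the level of 3 reads. It rose in both genotypes, and the interaction was 3.93 ± 0.50 (adjusted p = 2.32e-05). Gsta1, an alpha-class transferase, had 27.1, 42.5 and 84.4 CPM in ob at 0.5 mg/kg, 0.757, 1.23 and 1.67 in ob controls, 1.52, 2.46 and 7.43 in b6j at 0.5 mg/kg and 0.143, 0.216 and 4.52 in b6j controls. Its interaction of 3.60 ± 0.78 (adjusted p = 0.0107) depended on untreated b6j replicate 4, which held the highest control value. Without that library the log2 interaction was 1.87 and the call was lost, while every treated ob kidney still exceeded every other kidney in the comparison. Gm3776, a predicted gene on the same chromosome, ran in parallel with an interaction of 3.70 ± 0.85 (1.63 and not called without that library). Neither gene was called with limma-voom. Gsta4, which acts on lipid aldehydes, rose in both genotypes and had an interaction of 0.97 ± 0.19 (adjusted p = 0.00488). The 1 lower member, Gstt1, had -0.37 ± 0.098 (adjusted p = 0.049) and kept its call in 6 of 24 fits without 1 library. Near-identical transferase genes can share reads, and the split between them is uncertain.

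**Figure D2:**
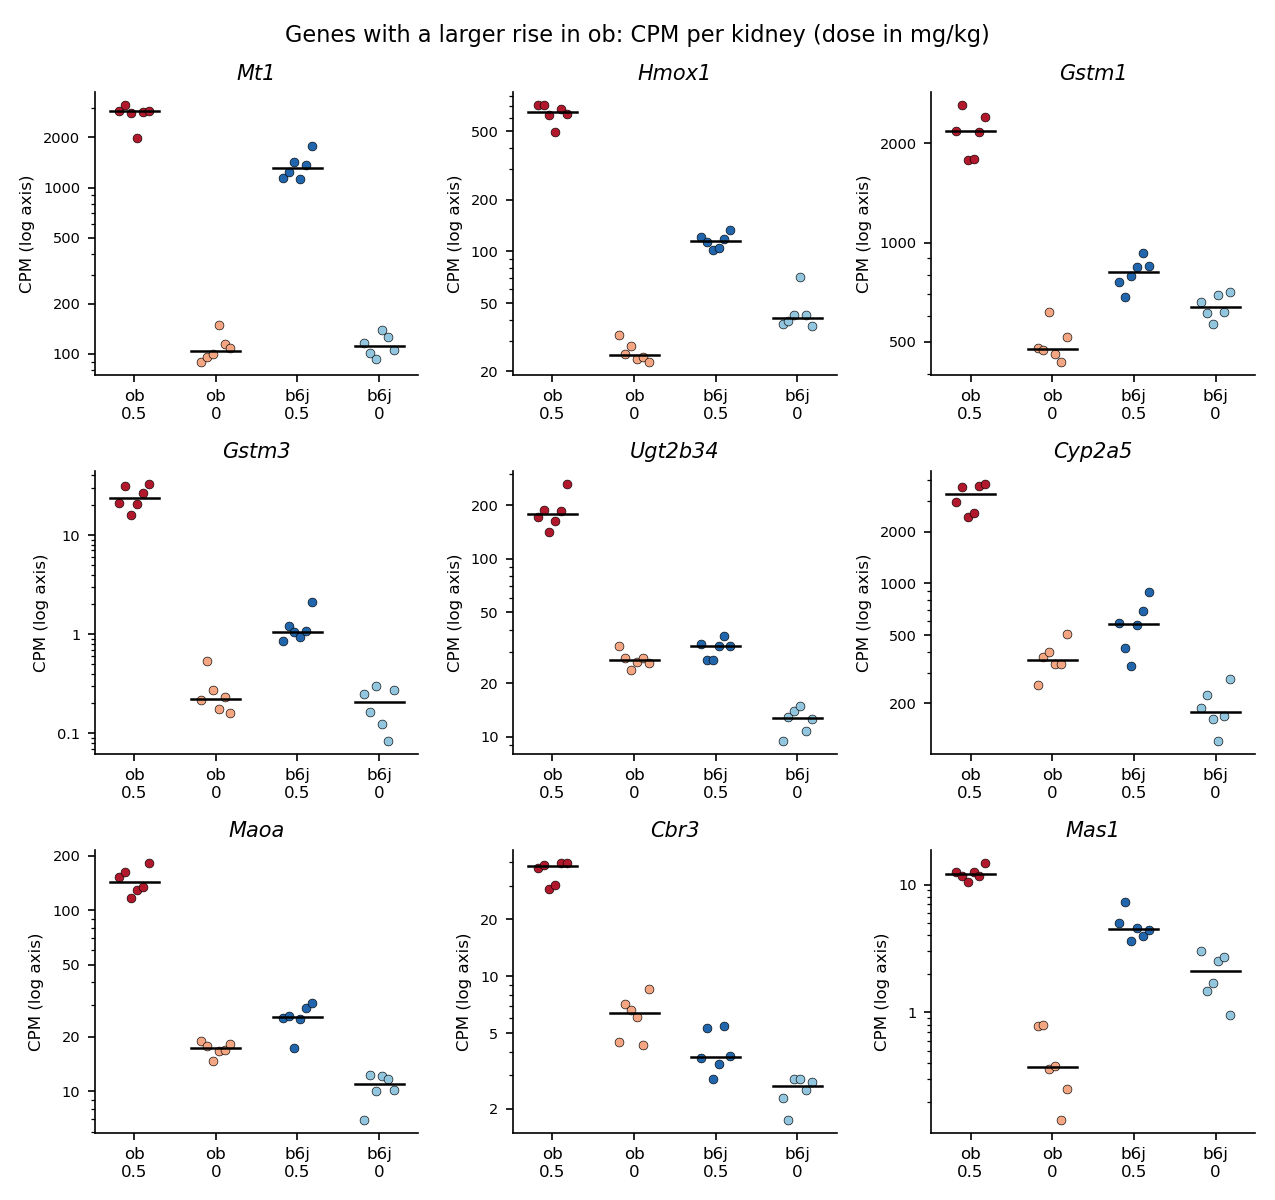
Level of 9 genes in each of 24 kidneys, in CPM on log axes. Groups run ob at 0.5 mg/kg, ob control, b6j at 0.5 mg/kg and b6j control, each point is 1 kidney and each bar the median of 6. The treated ob kidneys are the highest group in all 9 panels, and ob controls lie below every b6j control for Hmox1 and Mas1.

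The glucuronosyltransferases, which attach glucuronic acid, had 3 higher calls. Of 16 glucuronosyltransferase genes tested (of 19 listed), these 3 were higher in the interaction and 0 lower, with a median of 0.288. The share higher was 18.8%, against 1.47% of all genes. In ob 10 rose, and in b6j 3 did, against 7.13% and 0.689% of all genes. Ugt2b34 had 142, 179 and 264 CPM in ob at 0.5 mg/kg, 23.7, 27.01 and 32.3 in ob controls, 26.8, 32.5 and 36.9 in b6j at 0.5 mg/kg and 9.46, 12.8 and 14.8 in b6j controls. The treated b6j kidneys overlapped the untreated ob kidneys, and the interaction was 1.43 ± 0.17 (adjusted p = 1.02e-05). Ugt2b35 had 19.5, 33.6 and 51.98 CPM in ob at 0.5 mg/kg, against 0, 0.174 and 0.435 in ob controls, 0.813, 0.938 and 1.76 in b6j at 0.5 mg/kg and 0.0615, 0.133 and 0.215 in b6j controls. Both control groups were near the level of 3 reads, so the size of its interaction, 4.57 ± 0.75 (adjusted p = 0.000675), rests on few control reads. Ugt2b5 had medians of 74.4, 10.2, 7.91 and 4.76 CPM in ob treated, ob control, b6j treated and b6j control kidneys (interaction 2.01 ± 0.30, adjusted p = 0.000207).

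Carboxylesterases cleave esters of drugs and lipids. Of 14 of their genes tested (of 18 listed), 3 were higher (21.4%, against 1.47% of all genes) and 0 lower. Of the 14, 13 had a log2 interaction above 0, with a median of 1.11. Ces2e had 111, 125 and 143 CPM in ob at 0.5 mg/kg, 26.7, 31.8 and 45.1 in ob controls, 24.3, 29.8 and 37.4 in b6j at 0.5 mg/kg and 13.8, 16.2 and 20.2 in b6j controls (interaction 1.03 ± 0.17, adjusted p = 0.000791). It rose in both genotypes. Ces2c had 422, 498 and 611 CPM in ob at 0.5 mg/kg, 230, 267 and 294 in ob controls, 478, 567 and 655 in b6j at 0.5 mg/kg and 502, 604 and 677 in b6j controls. Here the ob controls alone were low, at 0.438 of the b6j control mean, and the treated ob kidneys overlapped both b6j groups, the lowest of them below every b6j kidney (interaction 1.03 ± 0.12, adjusted p = 1.02e-05). Ces2b, with 5.28, 3.52, 11.98 and 19.2 CPM as medians of ob treated, ob control, b6j treated and b6j control kidneys, had an interaction of 1.36 ± 0.31 (adjusted p = 0.0164), and neither single response passed. Genes of this family lie close together and are alike, so reads may be split between them.

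Most NRF2 and glutathione genes rose in ob and few in b6j. Of 28 tested (of 29 listed), 19 rose in ob and 3 in b6j, against 7.13% and 0.689% of all genes. The interaction was higher for 10 (35.7%, against 1.47% of all genes) and lower for 0. It was above 0 for 24 of 28, with a median of 0.283. Of 15 genes of NADPH supply, which these enzymes draw on, 4 were higher (26.7%) and 0 lower, with a median of 0.117. Of 10 regulators of NRF2 tested, Sqstm1 was higher and 0 lower, and the log2 interaction of Nfe2l2, which encodes NRF2, was -0.18 ± 0.074 (adjusted p = 0.26).

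Promoter windows are printed for 3 of these genes because each carries the core of an antioxidant response element, TGACNNNGC on either strand, shown in capitals. The windows are chr10:82858956-82859255 (plus strand), chr3:122245307-122245606 (plus strand) and chr9:86695865-86696164 (minus strand) from RefSeq GRCm38.p6, each read 5′ to 3′ on the strand of the gene. Where a gene had several windows, the one with the most matches is shown. In Gclm 3 matches to the metal response core are in capitals too, and 1 of them overlaps the antioxidant match.
Txnrd1: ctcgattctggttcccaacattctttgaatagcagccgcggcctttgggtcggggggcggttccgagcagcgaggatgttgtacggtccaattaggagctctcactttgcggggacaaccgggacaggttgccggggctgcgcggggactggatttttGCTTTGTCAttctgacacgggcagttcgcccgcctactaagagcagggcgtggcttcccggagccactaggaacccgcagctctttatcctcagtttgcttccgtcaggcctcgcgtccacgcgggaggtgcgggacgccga
Gclm: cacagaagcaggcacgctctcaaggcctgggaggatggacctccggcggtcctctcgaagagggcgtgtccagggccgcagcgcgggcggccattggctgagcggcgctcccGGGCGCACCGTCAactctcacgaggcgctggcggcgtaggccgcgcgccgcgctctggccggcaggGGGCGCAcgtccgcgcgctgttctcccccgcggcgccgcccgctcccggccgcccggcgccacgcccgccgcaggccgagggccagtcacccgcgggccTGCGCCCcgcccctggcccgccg
Me1: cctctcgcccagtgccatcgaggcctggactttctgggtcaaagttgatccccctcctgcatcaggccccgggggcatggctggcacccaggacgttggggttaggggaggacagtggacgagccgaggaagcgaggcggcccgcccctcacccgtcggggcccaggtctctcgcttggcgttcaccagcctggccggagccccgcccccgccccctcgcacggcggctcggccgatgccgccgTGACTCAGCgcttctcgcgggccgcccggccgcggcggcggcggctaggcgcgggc
The antioxidant core was found in 21.2% of 250 windows of the 197 higher genes with an entry, in 13% of 69 windows of the 54 lower genes with an entry, in 14.1% of 15547 windows of genes tested and in 12.4% of all 32851 windows. The metal core was found in 31.2%, 34.8%, 34.3% and 25.7% of the same sets. A match of these letters is a description of the window and not a bound site.

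Txnrd1, the cytosolic thioredoxin reductase, had 286, 332 and 347 CPM in ob at 0.5 mg/kg, against 156, 173 and 183 CPM in ob controls. In b6j it had 200.2, 209 and 252 CPM at 0.5 mg/kg, against 175, 189.8 and 239.8 CPM in controls. All 6 treated ob kidneys exceeded the other 18, and the interaction was 0.78 ± 0.098 (adjusted p = 1.97e-05). Gclm, the modifier subunit of the enzyme that starts glutathione synthesis, had 289, 328 and 404 CPM in ob at 0.5 mg/kg, 198, 239.6 and 256 in ob controls, 311, 378 and 395 in b6j at 0.5 mg/kg and 324, 384 and 398 in b6j controls. Its b6j response was -0.017 ± 0.077, its ob controls were below every b6j control, and the interaction was 0.54 ± 0.11 (adjusted p = 0.00634). Gclc, the catalytic subunit, had an interaction of 0.75 ± 0.19 (adjusted p = 0.0382) that was lost in 12 of 24 fits without 1 library. Me1, the cytosolic malic enzyme that makes NADPH, had 429, 469 and 528 CPM in ob at 0.5 mg/kg, 301, 331 and 400.4 in ob controls, 567, 639 and 741 in b6j at 0.5 mg/kg and 612, 654 and 706 in b6j controls. The ob groups stayed below the b6j groups at both doses, and the interaction was 0.51 ± 0.098 (adjusted p = 0.00344).

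Not every target followed. Cbr3, a carbonyl reductase, had 29, 38.2 and 39.8 CPM in ob at 0.5 mg/kg, 4.34, 6.40 and 8.59 in ob controls, 2.87, 3.77 and 5.46 in b6j at 0.5 mg/kg and 1.75, 2.64 and 2.86 in b6j controls, and an interaction of 1.82 ± 0.23 (adjusted p = 2.56e-05). Its neighbour in function Cbr1 had 0.73 ± 0.13 (adjusted p = 0.00193), and both rose in both genotypes. Gsr, glutathione reductase, and Ephx1, an epoxide hydrolase, rose in ob without a called change in b6j, with interactions of 0.46 ± 0.088 (adjusted p = 0.00342) and 0.94 ± 0.19 (adjusted p = 0.00602). Pgd of the pentose phosphate pathway had 0.42 ± 0.088 (adjusted p = 0.0081). Nqo1, often used as the reporter of NRF2, had 115, 146 and 152 CPM in ob at 0.5 mg/kg, 102, 114 and 126 in ob controls, 60.6, 77.9 and 95.2 in b6j at 0.5 mg/kg and 59.2, 70.1 and 83.1 in b6j controls. It rose in ob by 0.32 (adjusted p = 0.0176), and its interaction of 0.18 ± 0.13 did not pass (adjusted p = 0.571). Slc7a11, the cystine transporter, had medians of 0.963, 0.0890, 0.723 and 0.566 CPM in ob treated, ob control, b6j treated and b6j control kidneys and an uncertain interaction of 2.95 ± 0.99 (adjusted p = 0.13). Sqstm1, the autophagy receptor that binds KEAP1, had 0.56 ± 0.11 (adjusted p = 0.00344).

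Several other large interactions were in enzymes, receptors and transporters. Maoa, the mitochondrial monoamine oxidase, had 116, 144 and 183 CPM in ob at 0.5 mg/kg, 14.7, 17.4 and 18.9 in ob controls, 17.4, 25.8 and 30.8 in b6j at 0.5 mg/kg and 6.95, 10.95 and 12.3 in b6j controls. It rose 8.49-fold in ob and 2.43-fold in b6j, and its interaction was 1.81 ± 0.18 (adjusted p = 5.19e-07). Cyp2a5, a cytochrome P450 that oxidizes coumarin and bilirubin, had 2416, 3299 and 3789 CPM in ob at 0.5 mg/kg, 256, 357 and 509 in ob controls, 331, 577 and 894 in b6j at 0.5 mg/kg and 121, 178 and 276 in b6j controls. Its interaction was 1.49 ± 0.28 (adjusted p = 0.00315). It was the 1 called gene among 30 tested in the list of cytochrome P450 and aldehyde metabolism, against 1.86% of all genes. That list does not hold every gene of these families, and outside it Aldh1b1, Cyp4a12a and Cyp2j9 were called higher and Cyp2c23 lower. Mas1, the receptor for angiotensin-(1-7), had 10.4, 12.1 and 14.8 CPM in ob at 0.5 mg/kg, 0.145, 0.372 and 0.798 in ob controls, 3.63, 4.49 and 7.24 in b6j at 0.5 mg/kg and 0.951, 2.11 and 3.05 in b6j controls. The ob controls were the lowest of the 4 groups and the treated ob kidneys the highest, all without overlap (interaction 3.53 ± 0.38, adjusted p = 3.07e-06). Mas1 overlaps the antisense gene Airn. Slc10a1, a bile acid transporter, had an interaction of 1.77 ± 0.33 (adjusted p = 0.00256), with medians of 6.03, 1.01, 2.84 and 1.36 CPM in ob treated, ob control, b6j treated and b6j control kidneys.

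Most lysosomal transcripts listed rose in ob. Of 28 lysosome genes tested, 18 rose in ob and 2 in b6j, against 7.13% and 0.689% of all genes. The interaction was higher for 9 (32.1%, against 1.47% of all genes) and lower for 0. It was above 0 for 23 of 28, with a median of 0.169 against -0.0149 for all genes. Psap, the precursor of the saposins that help degrade sphingolipids, had 3247, 3778 and 4707 CPM in ob at 0.5 mg/kg, against 1342, 1476 and 1671 CPM in ob controls. In b6j it had 2599, 2741 and 3071 CPM at 0.5 mg/kg, against 1705, 1834 and 2149 CPM in controls. It rose in both genotypes without overlap, and the interaction was 0.84 ± 0.10 (adjusted p = 1.97e-05). Glb1, beta-galactosidase, had 196, 213 and 226 CPM in ob at 0.5 mg/kg, 125, 128 and 160.3 in ob controls, 192, 215 and 249 in b6j at 0.5 mg/kg and 195, 217 and 229.6 in b6j controls. Its ob controls were below the 3 other groups, which overlapped each other, and the interaction was 0.65 ± 0.091 (adjusted p = 9.14e-05). Ctsd, the protease cathepsin D, had 556, 596 and 688 CPM in ob at 0.5 mg/kg, 296, 333 and 347 in ob controls, 349.9, 372 and 535 in b6j at 0.5 mg/kg and 306, 342 and 353 in b6j controls (interaction 0.63 ± 0.11, adjusted p = 0.00188). Other called members included Lamp1, Ctsa, Ctsl, Ctsz and Npc2.

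Most p53 targets listed rose in ob kidneys at this dose. Of 19 tested, 14 rose in ob and 0 in b6j, against 7.13% and 0.689% of all genes, so that the count in b6j is near the background. The interaction was higher for 5, or 26.3% against 1.47% of all genes, and lower for 0, with a median of 0.48. Eda2r, which encodes a receptor, had 2.71, 3.12 and 4.60 CPM in ob at 0.5 mg/kg, 0.573, 0.772 and 1.10 in ob controls, 0.292, 0.660 and 0.881 in b6j at 0.5 mg/kg and 0.431, 0.576 and 0.789 in b6j controls. The treated ob kidneys stood above the other 18, with an interaction of 2.04 ± 0.35 (adjusted p = 0.00126). Trp53inp1, a p53 cofactor, had 59.1, 65.4 and 75.5 CPM in ob at 0.5 mg/kg, 33.4, 37.5 and 42.03 in ob controls, 33.2, 38.3 and 44.7 in b6j at 0.5 mg/kg and 31.6, 32.9 and 49.8 in b6j controls (interaction 0.72 ± 0.13, adjusted p = 0.00212). Bax, which opens the outer mitochondrial membrane, and Ccng1, cyclin G1, had interactions of 0.60 ± 0.11 (adjusted p = 0.00256) and 0.68 ± 0.13 (adjusted p = 0.00488). Cdkn1a, the cell cycle inhibitor p21, had 10.9, 17.4 and 22.2 CPM in ob at 0.5 mg/kg, 5.70, 6.63 and 7.58 in ob controls, 3.40, 5.42 and 7.63 in b6j at 0.5 mg/kg and 3.21, 4.29 and 16.5 in b6j controls. It rose in ob, and its interaction of 1.41 ± 0.41 did not pass (adjusted p = 0.0724). The highest Cdkn1a level in b6j controls was that of replicate 4.

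Tubular injury markers were called in both directions, and most were not called. Of 21 tested (of 22 listed), 4 were higher and 1 lower in the interaction, a share of 19% higher against 1.47% of all genes, with 10 of 21 above 0 and a median of -0.0241. Without untreated b6j replicate 4, 2 were higher and 1 lower. The calls kept in all 24 fits without 1 library were also 2 higher and 1 lower. Havcr1 had 7.24, 13.6 and 26.6 CPM in ob at 0.5 mg/kg, 0.509, 0.786 and 1.15 in ob controls, 8.04, 16.9 and 47.5 in b6j at 0.5 mg/kg and 2.11, 5.36 and 179 in b6j controls. The highest of these, 178.8 CPM, belongs to untreated b6j replicate 4, and the next highest untreated b6j kidney had 12.8 CPM. Its interaction was the most positive of those named, 4.92 ± 1.21 (adjusted p = 0.0278), but without that library it was 2.31 and not called. The call was also lost without any 1 of ob control replicates 2, 4 and 6, treated ob replicate 6 or treated b6j replicate 1, with limma-voom and with the replicate number as a block. At the dose itself the treated groups of ob and b6j overlapped, with a log2 difference of -0.47 (adjusted p = 0.719). The same untreated kidney had the highest b6j control values of Hmox1, Gsta1, Gdf15 and Tnfrsf12a.

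The stress cytokine Gdf15 and the TWEAK receptor Tnfrsf12a kept their calls without that kidney. Gdf15 had 28.2, 32.03 and 39.8 CPM in ob at 0.5 mg/kg, 5.22, 6.03 and 8.07 in ob controls, 11.3, 16.02 and 20.3 in b6j at 0.5 mg/kg and 6.13, 9.88 and 27.01 in b6j controls (interaction 1.97 ± 0.32, adjusted p = 0.000576). Tnfrsf12a had 25.7, 30.3 and 33.04 CPM in ob at 0.5 mg/kg, 9.003, 11.2 and 15.8 in ob controls, 16.01, 21.3 and 21.96 in b6j at 0.5 mg/kg and 17.1, 22.1 and 52.5 in b6j controls (interaction 1.74 ± 0.26, adjusted p = 0.000228). For both, treated ob kidneys exceeded all ob controls, and the b6j groups overlapped. For Gdf15 that overlap came from untreated b6j replicate 4 alone. The next highest b6j control had 10.43 CPM, below every treated b6j kidney. Vim, the filament protein vimentin, was the 1 lower member, with an interaction of -0.58 ± 0.11 (adjusted p = 0.00495): it rose in b6j by 0.36 (adjusted p = 0.0237) and its ob response was -0.22 (adjusted p = 0.0833). Lcn2, the urinary injury marker NGAL, had 4.59, 5.37 and 7.11 CPM in ob at 0.5 mg/kg, 3.69, 4.70 and 5.91 in ob controls, 3.14, 6.20 and 7.64 in b6j at 0.5 mg/kg and 3.37, 4.91 and 7.52 in b6j controls. The 4 groups overlapped, and its interaction was -0.024 ± 0.26 (adjusted p = 0.98).

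Some genes answered in opposite directions, or answered in ob from a low start. Of the 321 called genes, 185 had fitted responses of opposite sign in ob and b6j, and the share of all genes with opposite signs was not counted. Only Nhp2 and Tmprss9 passed both single tests in opposite directions. Nhp2, a protein of box H/ACA ribonucleoprotein particles, lies at chr11:51619735-51623714 (plus strand). Nhp2 had 49.8, 58.01 and 68.1 CPM in ob at 0.5 mg/kg, against 37.6, 41.6 and 49.5 CPM in ob controls. The b6j kidneys had 64.3, 70.9 and 80.1 CPM at 0.5 mg/kg, against 92.8, 96.5 and 109.8 CPM in controls. All 6 treated kidneys were above their controls in ob and all 6 below them in b6j. It rose by 0.42 ± 0.074 in ob (adjusted p = 0.000231) and fell in b6j with -0.46 ± 0.073 (adjusted p = 0.000441). The interaction was 0.88 ± 0.10 (adjusted p = 1.02e-05). Nhp2 overlaps Rmnd5b on the other strand. Tmprss9, a membrane serine protease, had 1.09, 1.72 and 2.45 CPM in ob at 0.5 mg/kg, 0.585, 0.960 and 1.51 in ob controls, 3.04, 4.18 and 4.65 in b6j at 0.5 mg/kg and 5.11, 6.96 and 10.3 in b6j controls, with an interaction of 1.61 ± 0.31 (adjusted p = 0.00406). The 2 genotypes did not overlap in untreated kidneys.

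Others were lower in untreated ob than in untreated b6j kidneys, rose in ob and did not pass the test in b6j. Nrtn, the growth factor neurturin, had 13.3, 14.5 and 16.2 CPM in ob at 0.5 mg/kg, 5.16, 6.93 and 7.38 in ob controls, 12.02, 14.02 and 16.9 in b6j at 0.5 mg/kg and 12.9, 14.4 and 16.8 in b6j controls (interaction 1.16 ± 0.14, adjusted p = 1.02e-05). The treated ob values lay within the range of the b6j groups. Slc1a4, a transporter of serine and other neutral amino acids, had 35.3, 38.4 and 46.4 CPM in ob at 0.5 mg/kg, 15.95, 18.1 and 20.2 in ob controls, 43.7, 46.8 and 57.2 in b6j at 0.5 mg/kg and 40.6, 49.7 and 66.2 in b6j controls (interaction 1.23 ± 0.15, adjusted p = 1.17e-05). Slc41a2, a magnesium transporter, and Fuca2, a fucosidase, had interactions of 0.88 ± 0.12 (adjusted p = 0.000112) and 0.57 ± 0.077 (adjusted p = 6.24e-05) with ob controls below every b6j control. Slco1a6, an organic anion transporter, had 0.64 ± 0.097 (adjusted p = 0.000216). The noncoding Gm44785 and Abhd11os had 2.12 ± 0.26 (adjusted p = 1.17e-05) and 1.21 ± 0.18 (adjusted p = 0.000158), and Ly6f, of the Ly6 surface protein family, had 3.31 ± 0.45 (adjusted p = 5.95e-05). Abhd11os overlaps Abhd11 on the other strand. The counting ignored strand, so reads of overlapping genes cannot be told apart, and this also touches Txnrd1, Slc48a1, Sqstm1, Gclm, Me1, Slc41a2, Slco1a6, Slc6a4, Abcb1a, Abcb1b, Tmprss9, Lamp1, Ctsa, Ctsl and Ctsz. The interaction and the difference between control groups share the 12 control libraries, so the 2 are not independent. Between untreated ob and b6j kidneys 4879 genes were called (28.2%), and between the treated groups 3617 (20.9%).

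**Figure D3:**
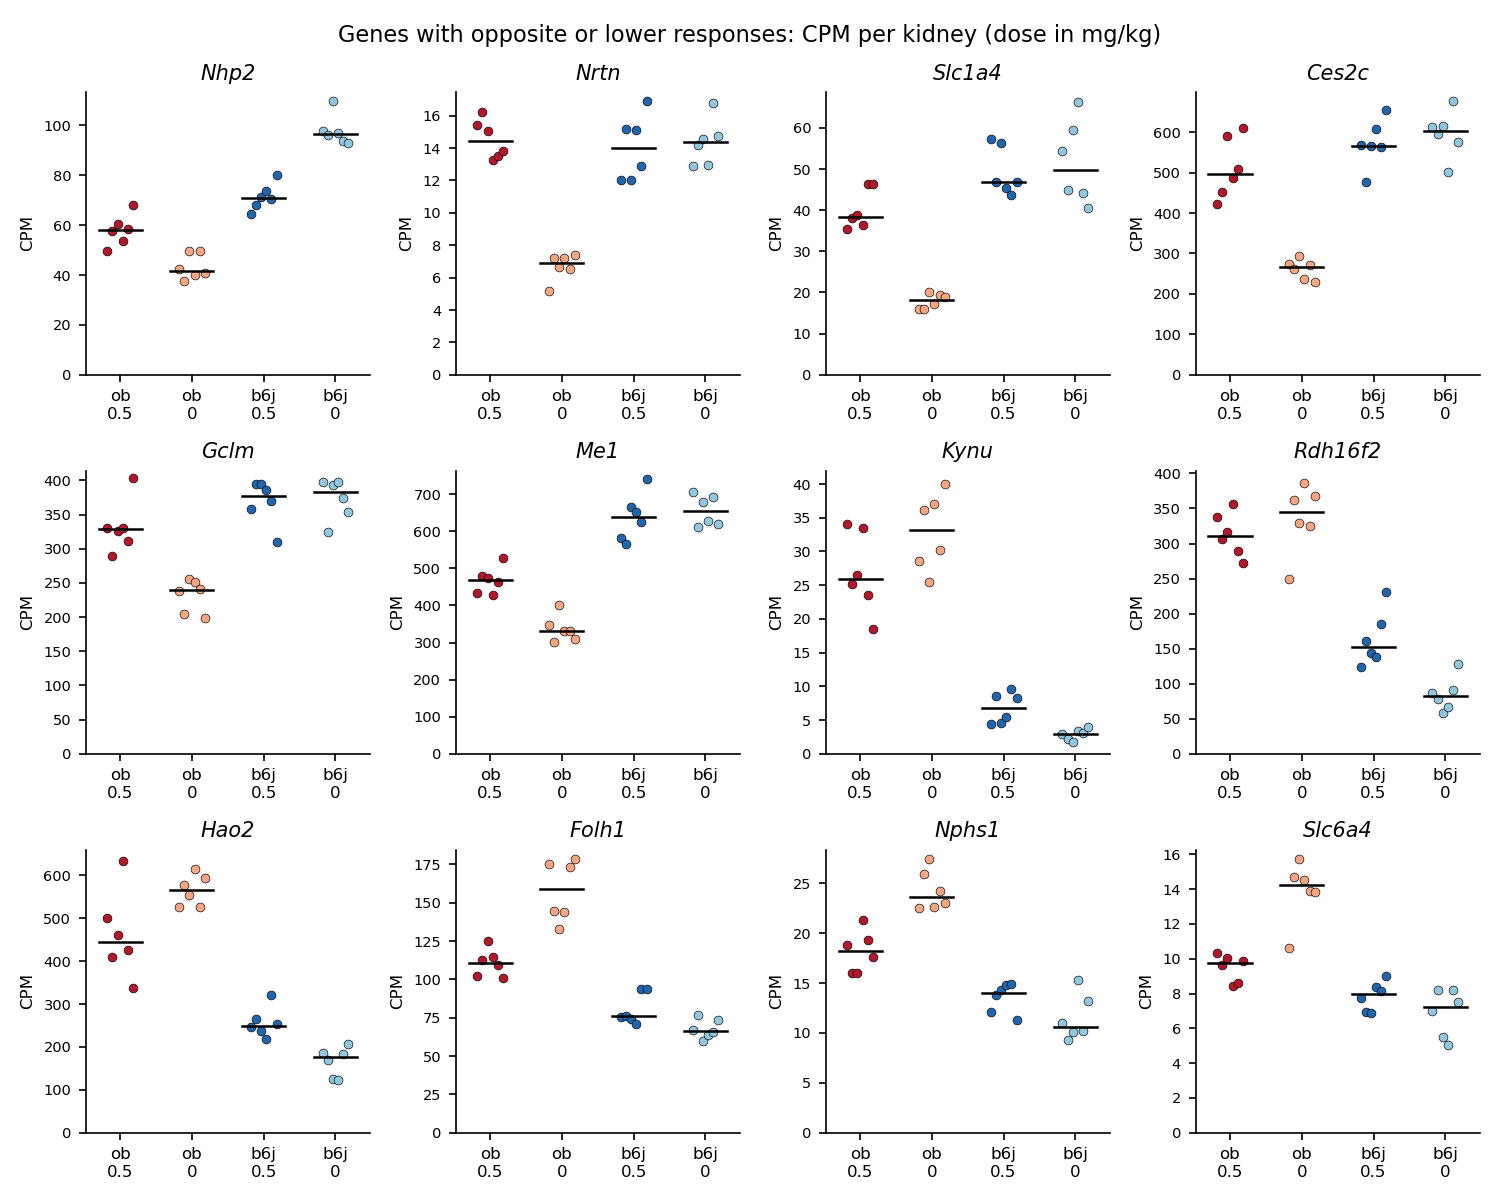
Level of 12 genes in each of 24 kidneys, in CPM on linear axes from 0. Groups run ob at 0.5 mg/kg, ob control, b6j at 0.5 mg/kg and b6j control, each point is 1 kidney and each bar the median of 6. Nhp2 is higher with the dose in ob and lower in b6j, and the last 6 panels show genes whose ob controls exceed both b6j groups.

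The 67 genes with a lower interaction were led by genes with high untreated levels in ob. Lower calls depended on the fit more than higher ones. With the 12 libraries at 2 mg/kg in the same fit, 3 were lower and 67 higher. Dropping ob at 2 mg/kg replicate 5 from that fit gave 52 lower and 202 higher. At an adjusted p below 0.01, 12 were lower and 112 higher. Kynu, Rdh16f2, Hao2, Serpina1a, Abcb1b, Slc7a12, Prlr, Folh1, Slc6a4, Gm12121, Cyp2c23, Vim and Nphs1 lost their calls with the 2 mg/kg libraries in the fit. When ob at 2 mg/kg replicate 5 was dropped from that fit, Slc7a12 and Abcb1b were still lost. The others of these genes were called in it. Kynu, the kynureninase of tryptophan breakdown, lies at chr2:43555329-43682715 (plus strand) and had 18.6, 25.9 and 34.1 CPM in ob at 0.5 mg/kg, against 25.5, 33.2 and 40.02 CPM in ob controls. In b6j it had 4.35, 6.83 and 9.59 CPM at 0.5 mg/kg, against 1.73, 2.96 and 3.90 CPM in controls. All 6 treated b6j kidneys exceeded all 6 b6j controls, and the ob groups overlapped. It rose in b6j by 1.25 ± 0.21 (adjusted p = 0.00088), its ob response was -0.29 ± 0.18 (adjusted p = 0.339), and the interaction was -1.54 ± 0.27 (adjusted p = 0.00194). Rdh16f2, of a retinol dehydrogenase family, had 272, 311 and 357 CPM in ob at 0.5 mg/kg, 249.8, 346 and 387 in ob controls, 124, 152 and 231 in b6j at 0.5 mg/kg and 57.6, 82.3 and 127 in b6j controls (interaction -1.06 ± 0.21, adjusted p = 0.00488). Hao2, a peroxisomal hydroxyacid oxidase, had 337, 444 and 633 CPM in ob at 0.5 mg/kg, 525, 565 and 614 in ob controls, 218, 249 and 321 in b6j at 0.5 mg/kg and 123, 176 and 207 in b6j controls (interaction -0.93 ± 0.18, adjusted p = 0.00344). Both rose in b6j and did not pass the test in ob.

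Serpina1a, an antitrypsin, and Abcb1b, a P-glycoprotein efflux pump, also rose in b6j, with interactions of -1.02 ± 0.22 (adjusted p = 0.0105) and -1.08 ± 0.24 (adjusted p = 0.0151). Slc7a12, an amino acid transporter, and Prlr, the prolactin receptor, had the most negative interactions of those named, -1.67 ± 0.40 (adjusted p = 0.0247) and -1.59 ± 0.40 (adjusted p = 0.0325). Slc7a12 had medians of 44.4, 85.8, 12.7 and 5.57 CPM in ob treated, ob control, b6j treated and b6j control kidneys, and Prlr had 62.9, 111, 11.9 and 4.47 CPM. Neither passed a single response. Slc7a12 lost its call without b6j control replicate 3 and without treated b6j replicate 5, and Prlr lost its call in 11 of 24 fits without 1 library.

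A second set of lower genes fell in ob from a higher untreated level. Folh1, a folate hydrolase of the tubular brush border, had 101, 111 and 125 CPM in ob at 0.5 mg/kg, against 133, 159 and 178 CPM in ob controls. In b6j it had 70.9, 75.9 and 93.6 CPM at 0.5 mg/kg, against 60.1, 66.5 and 76.5 CPM in controls. The 6 treated ob kidneys were below all 6 ob controls and stayed above the b6j groups, and the interaction was -0.76 ± 0.12 (adjusted p = 0.00031). Slc6a4, the serotonin transporter, had 8.43, 9.76 and 10.3 CPM in ob at 0.5 mg/kg, 10.6, 14.2 and 15.7 in ob controls, 6.85, 7.95 and 8.99 in b6j at 0.5 mg/kg and 5.05, 7.24 and 8.19 in b6j controls (interaction -0.74 ± 0.16, adjusted p = 0.0113). Rasl11a, a small GTPase, and the noncoding Gm12121 fell in ob too, with interactions of -0.88 ± 0.19 (adjusted p = 0.011) and -0.81 ± 0.14 (adjusted p = 0.00194). Cyp2c23, an arachidonic acid epoxygenase, had -0.80 ± 0.18 (adjusted p = 0.0135) and passed neither single response.

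Further calls came from several other lists. Odc1, ornithine decarboxylase of polyamine synthesis, had 435, 538 and 984 CPM in ob at 0.5 mg/kg, 426, 455 and 608 in ob controls, 1140, 1420 and 1765 in b6j at 0.5 mg/kg and 1691, 2121 and 2460 in b6j controls (interaction 0.88 ± 0.21, adjusted p = 0.0195). Slc20a1, a sodium phosphate cotransporter, had 63.6, 69.6 and 78.02 CPM in ob at 0.5 mg/kg, 37.2, 42.3 and 44.4 in ob controls, 37.8, 44.6 and 53.2 in b6j at 0.5 mg/kg and 36.9, 42.5 and 59.5 in b6j controls (interaction 0.79 ± 0.13, adjusted p = 0.000948). Anpep, the brush border aminopeptidase N, had 137, 152 and 178 CPM in ob at 0.5 mg/kg, 91.4, 106 and 134 in ob controls, 142, 173 and 193 in b6j at 0.5 mg/kg and 158, 174 and 205 in b6j controls (interaction 0.54 ± 0.12, adjusted p = 0.0135). Slc20a1 and Anpep rose in ob and did not pass the test in b6j, and Odc1 passed neither single test. Slc20a1 overlaps genes on the other strand. Of 11 efflux transporters, Abcc2, the apical pump for glutathione conjugates, was higher with 0.57 ± 0.12 (adjusted p = 0.011), and Abcb1b and its close copy Abcb1a were lower, Abcb1a with -0.86 ± 0.21 (adjusted p = 0.0277). Over all genes 1.47% were higher and 0.388% lower. Of the 11, 0 were called with the 12 libraries at 2 mg/kg in the same fit. Pdk1, a kinase that inhibits pyruvate dehydrogenase, was lower with -0.48 ± 0.089 (adjusted p = 0.00315), and so was Apoe, which encodes apolipoprotein E, with -0.74 ± 0.19 (adjusted p = 0.0381).

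Podocyte transcripts were among the lower ones. Of 12 podocyte genes, 3 were lower and 0 higher in the interaction, 0 of 12 had a log2 interaction above 0, and the median was -0.371. Over all genes, 0.388% were lower in the interaction. In ob 5 fell, against 3.57% of all genes, and the 0 that fell in b6j is near the 0.237% of all genes. Nphs1, nephrin of the filtration slit, had 16, 18.2 and 21.3 CPM in ob at 0.5 mg/kg, 22.5, 23.6 and 27.4 in ob controls, 11.3, 14.02 and 14.9 in b6j at 0.5 mg/kg and 9.30, 10.6 and 15.3 in b6j controls (interaction -0.65 ± 0.15, adjusted p = 0.0153). The treated ob kidneys lay below all ob controls, and the b6j groups overlapped. Nphs1 overlaps an antisense gene. The summed level of the 12 genes was 364 to 417.6 CPM in ob at 0.5 mg/kg, 444.4 to 499.9 in ob controls, 298.5 to 335.4 in b6j at 0.5 mg/kg and 263.9 to 336.4 in b6j controls. In bulk kidney RNA, fewer cells of a type and less RNA per cell cannot be told apart.

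Markers of other kidney and immune cells had 0 or 1 call in each list, and in several lists most members lay below 0, as the podocyte genes did. Of 13 genes of mesangial cells and pericytes, 1 was lower, Myh11, a smooth muscle myosin, with -0.66 ± 0.17 (adjusted p = 0.0434), 4 were above 0 and the median was -0.219. Of 15 collecting duct genes, 1 was lower, Atp6v0d2, a subunit of the proton pump, with -0.38 ± 0.097 (adjusted p = 0.0355), 2 were above 0 and the median was -0.11. In these 2 lists, 0 lower calls held in all 24 fits without 1 library, and 0 with the 2 mg/kg libraries in the fit. The call of Myh11 was lost without untreated b6j replicate 4. Of 16 genes of the loop of Henle and distal convoluted tubule, 0 were called, 2 were above 0 and the median was -0.156. Of 29 proximal tubule genes, 0 were called in the interaction, with a median of -0.0712 and summed levels of 44870 to 56880 CPM in ob at 0.5 mg/kg, 43340 to 56550 in ob controls, 67140 to 84310 in b6j at 0.5 mg/kg and 66230 to 85130 in b6j controls. Of 20 macrophage and dendritic cell genes, 16 of T, B and NK cells and 8 of neutrophils and erythroid cells, 0 were called, with medians of -0.0234, 0.0172 and -0.282. None of 14 endothelial genes was called, 2 of 14 were above 0 and the median was -0.147. Over all genes the median interaction was -0.0149. The 14 perirenal fat genes had a median of -1.05 with 0 called, and the 10 urothelial genes -0.546 with 0 called and 0 above 0. Whether the amount of these tissues in a sample bears on the interaction was not tested. Heat shock chaperones, the unfolded protein response, NF-kB and cytokines, and the interferon response had 0 calls of 18, 20, 20 and 21 genes tested. Over all genes 1.86% were called, so 0 or 1 call in lists of these sizes is near the background.

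Mitochondrial genome transcripts rose in ob for 8 of 15 genes, against 7.13% of all genes. In b6j they rose for 0, which is near the 0.689% of all genes. The interaction was above 0 for 14 of 15, with a median of 0.286, and was called higher for mt-Nd1, 0.51 ± 0.093 (adjusted p = 0.00256), and mt-Nd2, 0.58 ± 0.11 (adjusted p = 0.00348), both subunits of respiratory complex I. Of 30 nuclear-encoded respiratory chain genes 1 was called higher (3.33%, against 1.47% of all genes). The integrated stress response list had 1 call of 21 (Gdf15), or 4.76%, with a median of 0.45. Over the 50 lists, 82 of 867 distinct genes tested were called, in 21 lists only higher, in 6 only lower and in 5 both ways. The share called over all genes was 1.86%. With the 12 libraries at 2 mg/kg in the same fit, the higher calls numbered 1 for NRF2 and glutathione genes, 1 for heme and iron, 3 for glutathione S-transferases, 5 for lysosome and 1 for p53 targets, and 0 podocyte genes were lower. Of 69 called genes followed through each alternative, 29 stayed called in that fit, Hmox1, Mt1, Gstm1, Gstm3, Maoa and Psap among them. Dropping ob at 2 mg/kg replicate 5 from that fit gave 7, 3, 4, 9 and 4 higher calls for these lists in the same order. In that case 3 podocyte genes were lower, and 60 of the 69 genes stayed called.

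**Figure D4:**
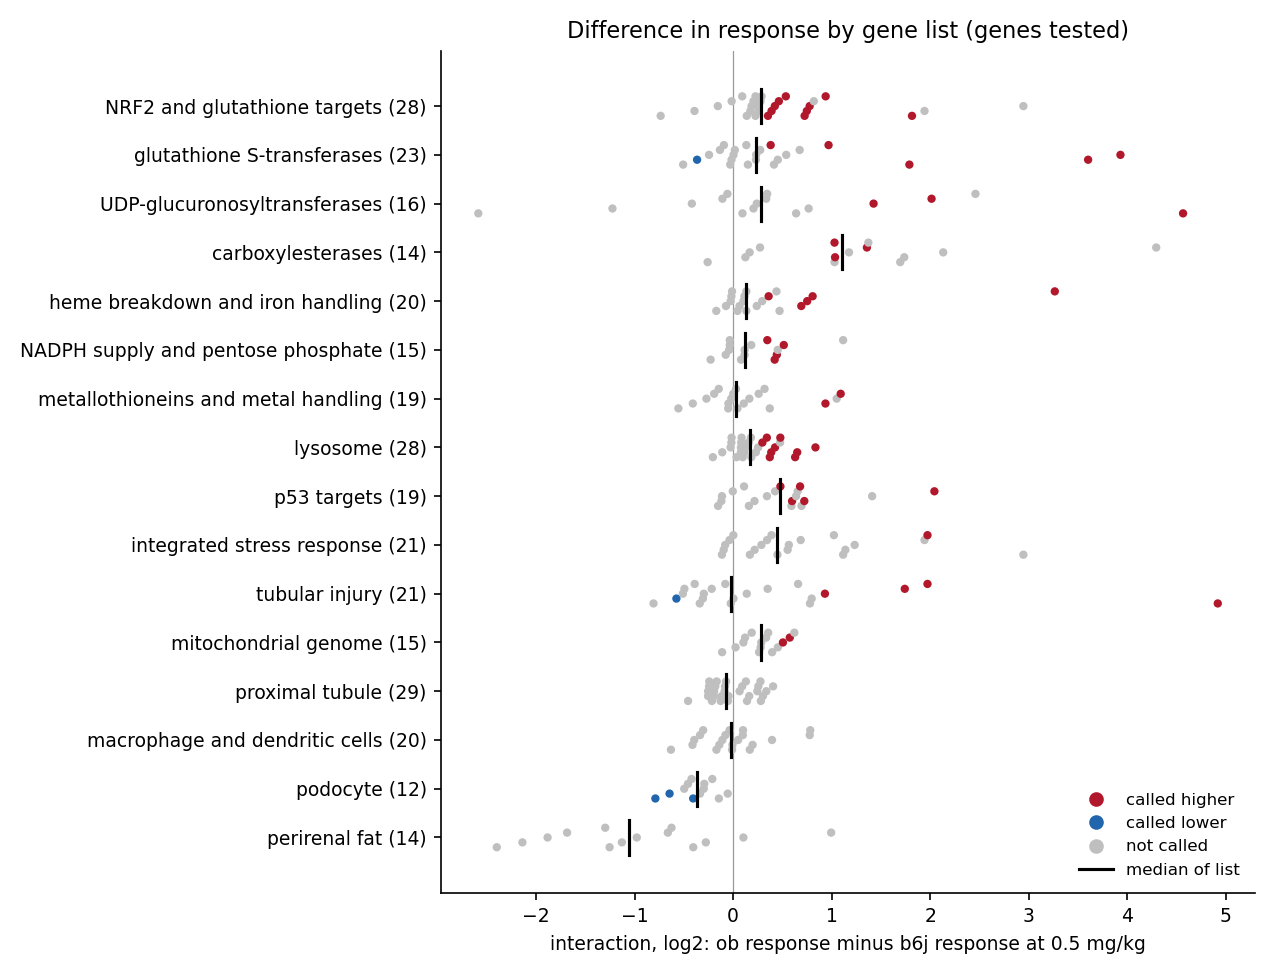
Log2 interaction of each tested member of 16 gene lists, with the number of genes tested in brackets. Red points were called higher, blue points called lower, grey points were not called, and each black bar is the median of a list. The medians of the carboxylesterases (1.11) and p53 targets (0.48) lie to the right of 0, and those of podocyte (-0.371) and perirenal fat (-1.05) genes to the left.

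The 2 mg/kg libraries, which did not enter the comparison, place these levels on the dose series. Hmox1 in ob had medians of 24.8, 650.3 and 1359 CPM at 0, 0.5 and 2 mg/kg, and in b6j 40.9, 115 and 1317 CPM. At 2 mg/kg the ranges of the genotypes overlapped, at 1020 to 2077 CPM in ob and 891 to 1803 CPM in b6j. Cyp2a5 had medians of 357, 3299 and 5465 CPM in ob and 178, 577 and 4727 CPM in b6j over the same doses. Ugt2b35 had 0.174, 33.6 and 124 CPM in ob and 0.133, 0.938 and 95.3 CPM in b6j. In each case most of the way to the highest level was covered by 0.5 mg/kg in ob and by 2 mg/kg in b6j on the log scale. Eda2r had 0.772, 3.12 and 18.98 CPM in ob and 0.576, 0.660 and 6.86 CPM in b6j, with the ob median the higher at each dose. Gclm had 239.6, 328 and 403 CPM in ob and 384, 378 and 563 CPM in b6j, with the b6j median the higher at each dose. These values are a description, and the 2 mg/kg libraries were not tested here.

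**Figure D5:**
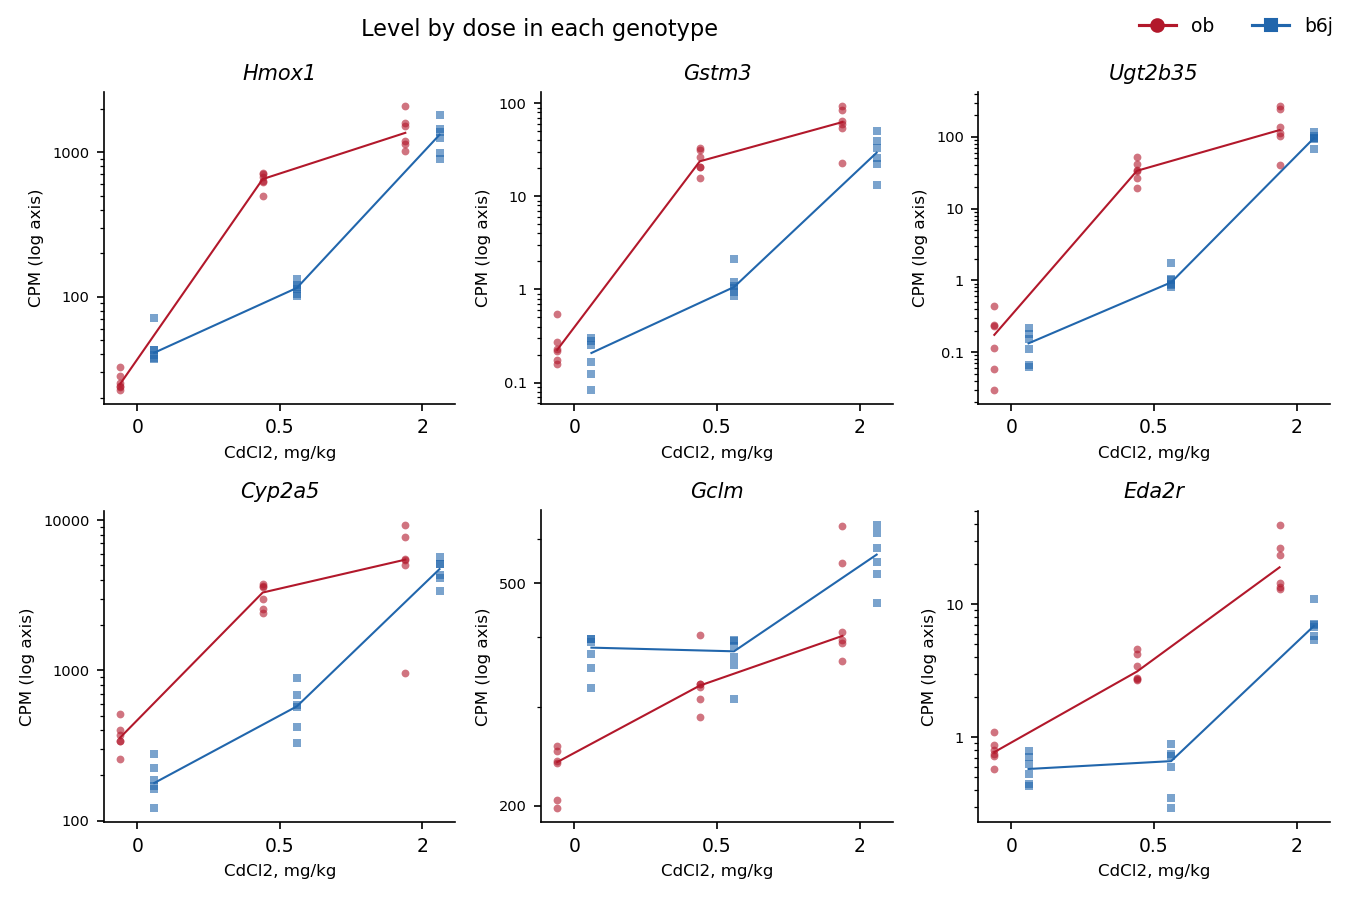
Level of 6 genes at 0, 0.5 and 2 mg/kg CdCl2, in CPM on log axes, with 1 point per kidney, 6 per group, and lines through the medians; ob is in red to the left of b6j in blue, and a kidney with no read is drawn at 0.03 CPM. In ob the step from 0 to 0.5 mg/kg is the steeper one for Hmox1, Gstm3, Ugt2b35 and Cyp2a5, and in b6j the step from 0.5 to 2 mg/kg.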

How the data were processed

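Total RNA from snap-frozen kidneys, extracted with TRizol, went into Illumina libraries if its integrity number passed 6.5, per the labels' protocols. The submitters' processing notes name bcl2fastq, Trimmomatic, FastQC and STAR. The deposited values are raw read counts per gene, made by the authors with featureCounts 1.4.6-p2 on exons of the Ensembl 96 annotation of GRCm38 with strand ignored, per the file headers. A deposited joined table of 36 columns was not used.

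From these counts, edgeR 4.0.16 (R 4.3.3) fitted 1 mean per group to the 24 libraries, with TMM scaling (factors 0.910 to 1.081), its default filter on low counts and a common dispersion of 0.0212. Quasi-likelihood tests were adjusted by Benjamini-Hochberg over 17282 genes and called below 0.05. Levels in the text are CPM from TMM-scaled library sizes, with the 2 mg/kg libraries put on the same scale by TMM over all 36, and standard errors are the absolute log2 change divided by the root of F. Alternatives were DESeq2 1.42.0, limma-voom (limma 3.58.1) with sample weights, other scalings, filters and thresholds, a replicate block, each library left out, and fits with the 2 mg/kg libraries. In 3 simulated sets of 17043 to 17055 genes with 200 changed, the interaction test found 81.7% of 2-fold and 63% of 1.5-fold changes, and 5.24% of its calls were unchanged genes. The changed genes were drawn from those with a mean above 1 CPM. Counts were drawn from the fitted dispersions, with no library made to stand apart. The rates therefore do not cover changes in genes near the 3-read level or libraries that deviate from their group.

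The comparison, the 50 gene lists and the tests were chosen with earlier results of these data known. Genes were named by rule. The rule takes Mt1, Mt2, Hmox1, Havcr1, Lcn2 and Lep, the 15 most positive and 15 most negative called interactions at a mean of 5 CPM or more in a group, the 10 called genes of opposite sign with the smallest p, and up to 4 members per list with the smallest p. Some genes that the rule takes are not reported here. Aldh1b1, Ctsl, Ctsz, Cyp2j9, Ephx1, Gclc, Gclm, Gstt1, Lamp1, Npc2, Nqo1, Tfrc and Tmprss9 were named after their values were seen, and Lrp2 and Umod to check the tissue. Promoter windows (250 bases before to 50 after the start) and their letters come from RefSeq GRCm38.p6, and Hmox1 is named without a window.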

Additional observations from a re-analysis of the deposited data

Results flagged for a closer look

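The responses of ob and b6j to 0.5 mg/kg differed for 321 genes by the test of the interaction. Tmprss9 and Nhp2 passed the single tests in opposite directions, with log2 interactions of 1.61 and 0.880.

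Among 300 groups of 6 kidneys (75 genes in 4 groups), 34 held a kidney whose gap to its nearest neighbour exceeded Dixon's 95% critical value (11.3%). Chance flags about 1 in 20 groups, and genes that move together are not independent flags. The kidney with the most flags, 8, was untreated b6j replicate 4, which was the highest of its group for Havcr1 at 178.8 CPM, Tnfrsf12a at 52.54 CPM, Gdf15 at 27.01 CPM, Cdkn1a at 16.52 CPM, Hmox1 at 70.90 CPM, Sqstm1 at 1019 CPM, Gsta1 at 4.522 CPM and Gm3776 at 5.629 CPM. These are injury and stress genes and conjugation enzymes, and no treatment is labelled for this kidney. Treated ob replicate 6 was the highest of its group for Tfrc at 140.8 CPM, Ces2b at 10.10 CPM, Gclm at 403.5 CPM, Ccng1 at 358.7 CPM and Abhd11os at 12 CPM. Treated b6j replicate 6, the library with the short-gene excess, was the highest of its group for Fth1 at 6533 CPM, Gstm3 at 2.119 CPM, Sqstm1 at 1068 CPM and Abhd11os at 7.600 CPM.

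Treated b6j replicate 5 was the highest of its group for Havcr1 at 47.46 CPM, Gsta1 at 7.426 CPM and Gm3776 at 8.052 CPM. Untreated b6j replicate 3 was the highest for Slc30a2 at 127.2 CPM and Nhp2 at 109.8 CPM. In other untreated b6j kidneys, replicate 6 was the lowest for Slc41a2 at 21.48 CPM and the highest for Prlr at 14.36 CPM, and replicate 2 the highest for Ephx1 at 77.51 CPM. Treated b6j replicate 2 was the highest for Ugt2b35 at 1.758 CPM.

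In treated ob kidneys, replicate 4 was the lowest for Mt1 at 1989 CPM and the highest for Slc7a12 at 107.5 CPM, replicate 2 the highest for Vim at 49.15 CPM and Lep at 13.82 CPM, and replicate 1 the highest for Bax at 35.30 CPM. In untreated ob kidneys, replicate 1 was the lowest for Cyp2c23 at 63.69 CPM and Slc6a4 at 10.64 CPM, and replicate 2 the highest for Gstm3 at 0.5414 CPM.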

How the results depend on the processing

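The 321 interaction calls became 70 with all 36 libraries in the fit, 254 without ob at 2 mg/kg replicate 5, 580 with DESeq2, 907 with limma-voom and 124 at an adjusted p below 0.01. Leaving out 1 of the 24 libraries gave 232 to 846 calls, 1426 to 2273 for the ob response, 113 to 232 for the b6j response, 4279 to 5259 between controls and 3066 to 3700 between treated groups. With 36 libraries these 4 comparisons gave 779, 59, 2822 and 1753 calls, and at an adjusted p below 0.01 they gave 922, 93, 3126 and 2205. The ob response had 3001 calls with scaling by library size only, and the b6j response 308 with DESeq2 and 285 with limma-voom. Of the 321 genes 207 were called in each of the 24 fits without 1 library. In every alternative fit, at an adjusted p below 0.05, 59 were called. The sign of Lcn2, not called, turned to 0.05088, 0.03124, 0.03389, 0.07158, 0.04067, 0.05207 and 0.05935 in 7 of those fits, which ranged from -0.1698 to 0.07158. That of Atf3, also not called, turned to -0.1364 with limma-voom and -0.4612 without untreated b6j replicate 4, in a range of -0.4612 to 1.464 without 1 library. The cause of these shifts was not tested. Counting noise limits genes near 3 reads, such as Ugt2b35 in controls.

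Replicate numbers did not pair the samples. Of 24 pairs of same-numbered libraries, 5 had a correlation of deviations above 0.1, and the range was -0.332 to 0.207. With the replicate number as a block 328 genes were called, 278 of them among the 321, and of the 69 called genes followed Havcr1 lost its call.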

Other observations

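Ribosomal protein transcripts, which no list held and which were noticed after the data were seen, rose in ob for 46 of 77 cytosolic genes tested. Over all genes 7.13% rose in ob. In b6j 0 of the 77 rose, which is near the 0.689% of all genes. The interaction of the 77 was called higher for 11 and lower for 0, against 1.47% and 0.388% of all genes. It was above 0 for 71 of 77, with a median of 0.193 against -0.0149 for all genes. The count of higher calls was 28 with limma-voom, 17 with DESeq2, 5 with 35 libraries, 0 with all 36 libraries and 1 with scaling by library size only. It was 26 without treated b6j replicate 6, the library with the short-gene excess, and 3 without untreated ob replicate 1. Whether transcript length bears on these values was not tested.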
